A study of Mus musculus with 2 samples.

Results

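Mitochondrial ribosomal proteins were followed in macrophages sorted from the mouse colon, on 1 array for control mice and 1 array for mice with chemically induced colitis. Members were all genes whose array annotation gives a single symbol starting with Mrpl (large subunit) or Mrps (small subunit) and a digit, a choice made by name and not by measured values. This gave 77 of 19938 genes with a single symbol, read by 85 probe sets. Control mice drank water for 5 days, and the other mice drank water with 3% (wt/vol) dextran sulfate sodium (DSS), a polymer that injures the colon lining, for 5 days. Cells of both groups were lamina propria macrophages sorted as positive for CD45, IAb, CD11b and F4/80 and negative for CD103. Strain, age, sex and the number of mice behind each array were not given in the labels. With 1 array in each group no test between conditions was possible, the differences have no replicate check, and each compares these 2 arrays.

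The mitochondrial ribosome translates the few proteins encoded by mitochondrial DNA, all of them core subunits of the respiratory chain and the ATP synthase. Its RNAs come from mitochondrial DNA, while its proteins are encoded in the nucleus, made in the cytosol and imported. Some of these proteins descend from those of bacterial ribosomes, and others were added during the evolution of mitochondria. In macrophages the respiratory chain is known to be remodelled upon inflammatory activation, which is the background for reading this gene family in colitis.

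The promoters of the 3 members furthest in each direction are shown because their letters can be set against the differences of the same genes. They are the 250 bases before the start of each gene, taken from RefSeq on GRCm38.p6 and written 5′ to 3′ on the strand of the gene. Capitals mark matches to 5 motifs searched on both strands: GCGCANGCG of the factor NRF1, CCGGAAG of ETS family factors such as GABP, AANATGGCG of YY1, CCAAT of NF-Y and the E-box CACGTG bound by MYC. The first 3 genes had the highest DSS minus control differences, and the next 3 had the lowest.
Mrpl52 (chr14:54426659-54426908, + strand): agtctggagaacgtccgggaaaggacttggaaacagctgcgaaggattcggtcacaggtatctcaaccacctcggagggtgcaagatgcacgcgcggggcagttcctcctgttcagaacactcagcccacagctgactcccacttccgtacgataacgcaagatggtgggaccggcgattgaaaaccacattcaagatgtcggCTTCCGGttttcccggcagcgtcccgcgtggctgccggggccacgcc
Mrpl33 (chr5:31613701-31613950, + strand): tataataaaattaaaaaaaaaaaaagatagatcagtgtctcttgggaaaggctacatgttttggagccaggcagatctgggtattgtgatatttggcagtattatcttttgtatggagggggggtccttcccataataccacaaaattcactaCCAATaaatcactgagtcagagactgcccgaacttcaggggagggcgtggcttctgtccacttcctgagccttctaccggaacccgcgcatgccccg
Mrpl32 (chr13:14613038-14613287, - strand): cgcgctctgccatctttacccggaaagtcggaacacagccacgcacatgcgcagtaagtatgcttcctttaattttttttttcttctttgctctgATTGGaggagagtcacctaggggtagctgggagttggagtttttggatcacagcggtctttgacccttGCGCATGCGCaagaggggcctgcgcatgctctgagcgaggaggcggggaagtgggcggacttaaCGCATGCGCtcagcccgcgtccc
Mrps6 (chr16:92058086-92058335, + strand): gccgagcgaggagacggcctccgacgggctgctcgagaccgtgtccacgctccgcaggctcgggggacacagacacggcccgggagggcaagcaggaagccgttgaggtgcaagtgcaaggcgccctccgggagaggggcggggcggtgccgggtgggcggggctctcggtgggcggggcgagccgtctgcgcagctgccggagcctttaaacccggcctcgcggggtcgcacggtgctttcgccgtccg
Mrpl12 (chr11:120484387-120484636, + strand): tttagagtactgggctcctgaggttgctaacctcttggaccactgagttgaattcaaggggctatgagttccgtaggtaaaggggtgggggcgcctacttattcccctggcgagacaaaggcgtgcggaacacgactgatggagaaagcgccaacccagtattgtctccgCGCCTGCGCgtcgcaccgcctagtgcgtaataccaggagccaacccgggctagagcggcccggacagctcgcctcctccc
Mrpl44 (chr1:79775768-79776017, + strand): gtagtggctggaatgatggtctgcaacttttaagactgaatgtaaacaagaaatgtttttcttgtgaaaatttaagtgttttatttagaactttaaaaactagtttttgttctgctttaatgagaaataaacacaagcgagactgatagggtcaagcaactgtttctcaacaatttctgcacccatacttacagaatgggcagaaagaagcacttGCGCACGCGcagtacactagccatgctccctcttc

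Among these 6 promoters NRF1 matches lay on both sides of the difference, while ETS and NF-Y matches lay only in higher genes. So few promoters allow no reading by direction. NRF1 matches lay in Mrpl32, which was higher on the DSS array, and in Mrpl12 and Mrpl44, which were lower. The ETS match lay in Mrpl52 and NF-Y matches in Mrpl33 and Mrpl32, while the promoter of Mrps6 held none of the 5 motifs. A match is a description of letters and not a shown binding site, and a missing match says only that these letters are not in the window.

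Over the family, ETS and NRF1 letters were more frequent than among promoters in general. Promoters were found for 68 members, which had 74 promoters because 3 members had several. ETS letters were present in 17 of the 74 (22.97%), in 6.91% of all 32851 promoters and in 8.98% of those of protein-coding genes. NRF1 letters were present in 13 of 74 (17.6%), in 5.16% of all promoters and in 7.08% of those of protein-coding genes. NF-Y letters were about as frequent as elsewhere, at 27 of 74 (36.5%) against 33.8% and 35.4%. The E-box was in 7 of 74 (9.46%, against 6.02% and 6.63%) and YY1 letters were in 2 of 74 (2.703%, against 1.12% and 1.34%). No member promoter had matches of different motifs that overlapped. Median G+C content also differed, at 58.4% for member promoters, 52.4% for all promoters and 55.6% for those of protein-coding genes, and its part in these shares was not tested. The 13 members with NRF1 letters had a median difference of 0.24 and the 55 without one of 0.15, with quartiles of -0.01 to 0.47 and -0.05 to 0.29. The 17 members with ETS letters had a median difference of 0.22 and the 51 without one of 0.09, with quartiles of 0.00 to 0.41 and -0.06 to 0.30. The ranges overlapped for both motifs, and no direction is read from them.

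Nearly the whole family was read above the middle of the arrays, and most members were slightly higher on the DSS array. Signals are log2 values after robust multi-array averaging (RMA), and a difference is DSS minus control on that scale, so that 1 means 2-fold. Member signals ran from 4.29 to 10.65 with a median of 7.61 on the control array, and from 4.29 to 11.22 with a median of 7.76 on that of DSS mice. Of the 77 members, 76 exceeded the array median on both arrays, and Mrps27 (4.29 on both) was the exception. The median difference was 0.12, with quartiles of -0.06 and 0.32. It was 0.21 when each array was centred on its median and 0.12 under loess centring (a smooth curve of difference against signal was removed). In all, 47 members were above 0 (61.0%), 28 were below and 2 were equal on both arrays. Among all 19938 genes 39.9% were above 0, and among the 10645 genes whose mean signal passed the mean of the array medians 46.7% were. The median difference of these backgrounds was -0.06 and -0.03. Median centring raised them to 0.02 and 0.06, and loess centring gave -0.01 for each. Under median centring 60 of the 77 members were above 0, beside 10721 of all genes and 5953 of the brighter genes. Under loess centring these counts were 53, 9703 and 5223.

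No member reached 2-fold in either direction, so 0 were called higher, against a background of 2.25% of all genes, and 0 were called lower, against 1.72%. Among the 10645 brighter genes these shares were 3.96% and 2.97%. At 1.5-fold 4 members (5.19%) were higher, beside 5.76% of all genes and 9.79% of brighter genes. In the lower direction 1 member (1.30%) passed 1.5-fold, beside 5.33% and 8.59%. Members therefore passed 1.5-fold no more often than genes at large. Their SD across genes was 0.30, against 0.49 for all genes and 0.64 for the brighter genes. The distance between the quartiles, which extreme genes move less, was 0.37 for members, 0.36 for all genes and 0.52 for brighter genes. By that measure members were not less spread than all genes, but less spread than the brighter genes, which include 76 of the 77 members. The SD between probe sets of one gene, pooled over 974 genes, was 0.27, and 47 of the 77 member differences were smaller than that, 24 were larger upwards and 6 were larger downwards. This yardstick covers differences between probe sets with the same symbol, some of which may read another locus. It does not cover variation between mice or arrays. Genes whose sets had equal differences were left out of it.

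**Figure D1:**
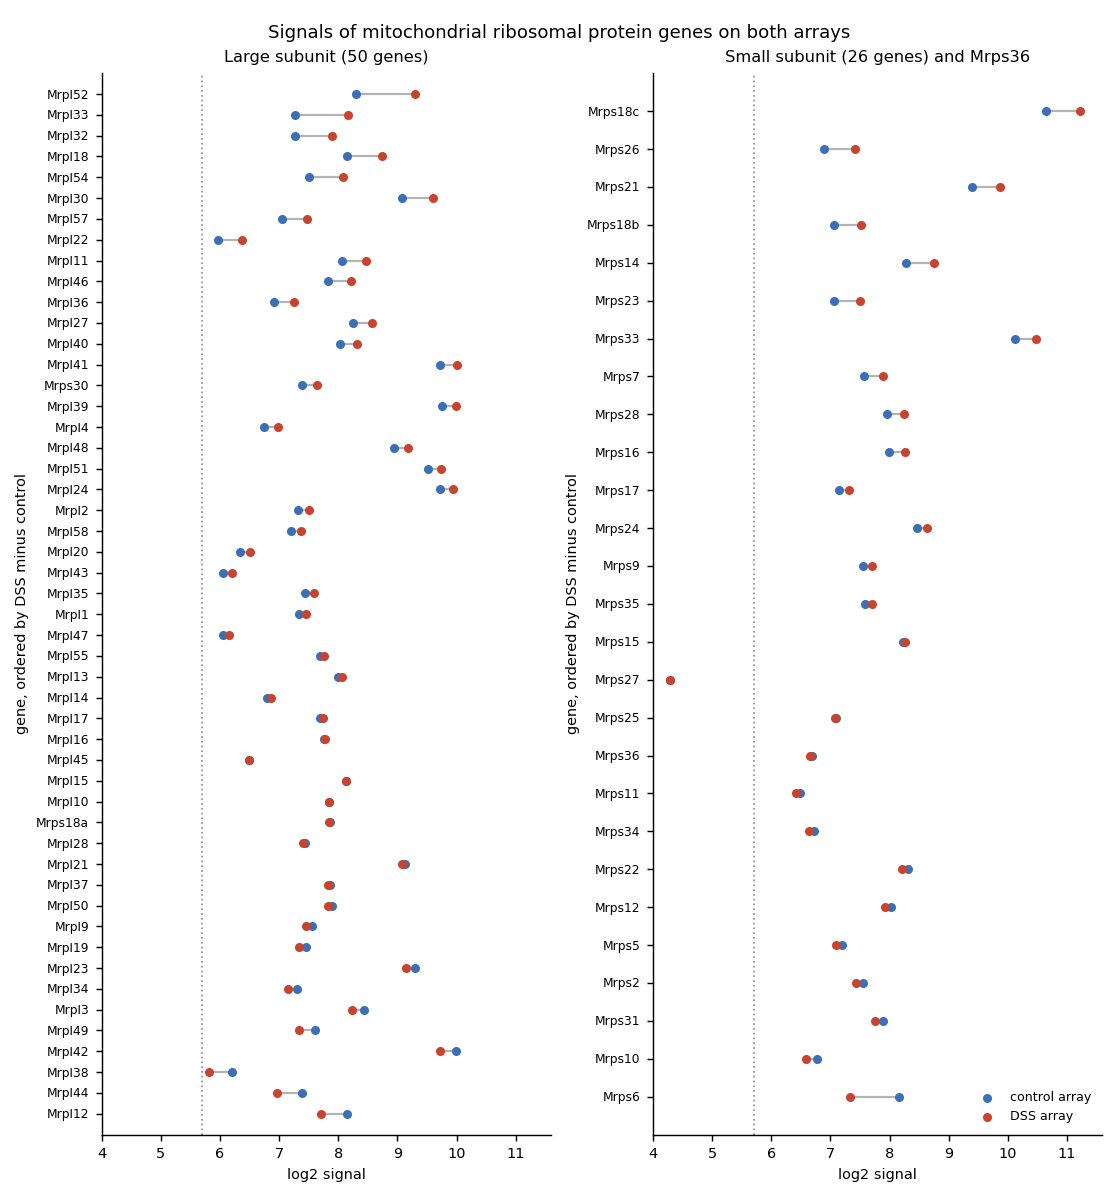
Log2 signal of each member on the control array (blue) and the DSS array (red), for the large subunit (left) and the small subunit with Mrps36 (right), ordered by DSS minus control; the dotted line is the control array's median of 5.70. The longest grey segments belong to Mrpl52, Mrpl33 and Mrps6, and 72 of 77 members differ by less than 1.5-fold.

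The 4 members with the highest differences were large subunit genes, as were 50 of the 77 members. The 50 genes counted to this subunit had a median difference of 0.14, with 32 above 0, 17 below and 1 equal. They included all 4 members at least 1.5-fold higher, 8% of the subunit, beside 5.76% of all genes and 9.79% of brighter genes. Mrpl52, a protein with no bacterial counterpart, read 8.30 in control and 9.29 in DSS, a 1.99-fold higher value just short of 2-fold. When each array was centred on its median this difference came to 1.08, and it was then the single member past 2-fold. Mrpl33, homologous to a small bacterial large subunit protein, read 7.26 in control and 8.17 in DSS, 1.87-fold higher. Mrpl32, whose protein is trimmed by the m-AAA protease before it joins the ribosome, read 7.26 and 7.89, 1.55-fold higher. Mrpl18, a member of the family of 5S rRNA binding proteins, read 8.15 and 8.74, 1.504-fold higher. These 4 genes lay between the 94.3rd and the 97.7th percentile of all genes, so genes with larger positive differences were common on these arrays.

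Next in the large subunit came Mrpl54, at 7.50 in control and 8.08 in DSS, and Mrpl30, at 9.08 and 9.61. Mrpl57 read 7.05 and 7.47, and Mrpl22, which lines the polypeptide exit tunnel, read 5.96 and 6.37. Mrpl11, at the base of the stalk that recruits translation factors, read 8.06 and 8.47. All 5 differences were between 0.41 and 0.58 and stayed above 0 under both centrings.

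At the other end of the large subunit, Mrpl12 had the lowest difference. Mrpl12 forms the flexible factor-binding stalk and in human cells also binds the mitochondrial RNA polymerase, and it read 8.14 in control and 7.70 in DSS, 1.36-fold lower. Mrpl44, a protein with a ribonuclease III-like fold next to the exit tunnel, read 7.38 and 6.96, 1.34-fold lower. Mrpl38, in the central protuberance, read 6.21 and 5.82, 1.31-fold lower. Mrpl42 read 9.997 and 9.73, and Mrpl49 read 7.61 and 7.34. These 5 were below 0 under both centrings, and none reached 1.5-fold.

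Members assigned here to the same site on the large subunit did not all share a direction. Sites were assigned from general knowledge, and the lists are not complete. In the factor-binding stalk Mrpl11 had a difference of 0.41, Mrpl10 one of -0.01 and Mrpl12 one of -0.44. Of the 4 members assigned to the central protuberance, Mrpl46, Mrpl40 and Mrpl48 had differences of 0.39, 0.29 and 0.23, and Mrpl38 one of -0.38. Around the exit tunnel Mrpl22, Mrpl24, Mrpl47 and Mrpl17 had 0.41, 0.21, 0.09 and 0.06, Mrpl23 had -0.14 and Mrpl44 had -0.42. Mrpl45, which ties the ribosome to the inner membrane, read 6.49 on both arrays. Mrpl1, of the stalk at the opposite side, had a difference of 0.12. Mrpl58, a release factor relative that became part of the ribosome, had one of 0.18. Mrpl10 turned above 0 under median centring.

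Small subunit members had a median difference close to that of the large subunit. A single gene passed 1.5-fold, in the lower direction (3.85%, beside 5.33% of all genes and 8.59% of brighter genes). Of 26 genes, 15 were above 0, 10 were below and 1 was equal, with a median of 0.14. Mrps18c, the closest relative of bacterial S18 among 3 mammalian versions, had the highest signal of the family at 10.65 in control and 11.22 in DSS, 1.49-fold higher. Mrps26 read 6.89 and 7.41, and Mrps21 read 9.40 and 9.87. Mrps18b read 7.05 and 7.52, while Mrps18a, another version that sits in the large subunit, read 7.86 and 7.84 and turned above 0 under median centring. Mrps14 read 8.28 and 8.75, and Mrps23 read 7.06 and 7.50. Mrps12, at the decoding centre, read 8.03 and 7.92.

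Mrps6 had the lowest difference of the family, at 8.15 in control and 7.34 in DSS, 1.76-fold lower. Its percentile among all genes was 2.66. The next lowest small subunit genes, Mrps10, Mrps31 and Mrps2, had differences of -0.19, -0.13 and -0.12. The gap between Mrps6 and Mrps10 was 0.63 on the log2 scale. The locus of Mrps6 overlaps that of Slc5a3, a myo-inositol transporter gene, in the RefSeq table. Slc5a3, named after its values were seen, read 7.33 in control and 5.67 in DSS, a difference of -1.66. The part of Slc5a3 in the Mrps6 signal was not tested. Mrps36 carries the family's name but belongs to the oxoglutarate dehydrogenase complex, and it read 6.68 and 6.65.

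Origin of the protein did not divide the family either. The 46 members with a bacterial homologue had a median difference of 0.11 with 30 above 0, and the 30 members counted as specific to mitochondria had 0.17 with 17 above 0. Their quartiles, -0.06 to 0.31 and -0.05 to 0.33, nearly coincided. Under loess centring these medians were 0.12 and 0.13. Across members the difference was weakly related to the mean signal (Spearman's rho = 0.24, Pearson's r = 0.25, n = 77 genes), as it was over the brighter genes (rho = 0.23). All points share the same 2 arrays, so these are descriptions.

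**Figure D2:**
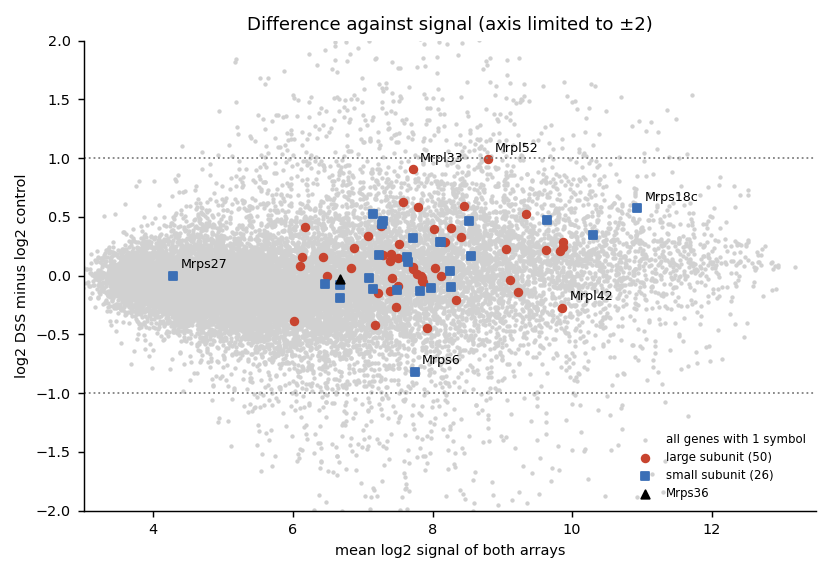
DSS minus control (log2) against the mean log2 signal of both arrays for all genes with a single symbol (grey) and the members by subunit; dotted lines mark 2-fold, and genes beyond ±2 are outside the axis. Members lie between -0.82 and 0.99, inside both dotted lines, from Mrps27 at 4.29 to Mrps18c at the bright end.

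The remaining large subunit members lay closer to 0. On the upper side Mrpl36 read 6.91 in control and 7.25 in DSS, and Mrps30, a large subunit protein despite its name, read 7.38 and 7.65. Mrpl39 and Mrpl4 had differences of 0.24 each. Mrpl2, a homologue of the bacterial protein at the peptidyl transferase centre, had one of 0.18. Mrpl20, Mrpl43 and Mrpl35 had 0.16, 0.16 and 0.15, and Mrpl55, Mrpl13 and Mrpl14 had 0.08, 0.07 and 0.07. Mrpl16, Mrpl15, Mrpl28, Mrpl21, Mrpl37 and Mrpl50 lay between 0.02 and -0.06. On the lower side Mrpl3, next to the same centre in its bacterial homologue, read 8.44 and 8.23. Mrpl34, Mrpl19 and Mrpl9 had differences of -0.15, -0.13 and -0.09. None of these genes reached 1.5-fold.

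The remaining small subunit members ran from Mrps7 to Mrps22. Mrps7, a homologue of the bacterial protein that starts assembly of the head, read 7.57 in control and 7.89 in DSS. Mrps28 and Mrps16 had differences of 0.29 and 0.28. Mrps17, Mrps24, Mrps9 and Mrps35 had 0.18, 0.17, 0.16 and 0.12. Mrps15, Mrps25 and Mrps34 had 0.04, -0.02 and -0.08, and Mrps22 read 8.32 and 8.21. Every one of these was smaller than the spread between probe sets of one gene but for Mrps7, Mrps28 and Mrps16.

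Small differences of this size depended on the scaling in part of the family. The sign held under the deposited values, median centring and loess centring in 63 members, 46 of them above and 17 of them below 0. It turned, or was 0 in the deposited values, in the other 14, which all had deposited differences between -0.08 and 0.04. The array medians were 5.70 and 5.62.

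Genes with 2 probe sets gave a second reading of 8 members. Both sets lay on the same side of 0 in 6 genes and on opposite sides in Mrpl51 and Mrps36. For Mrpl51 the brighter set (10475360), used here by the rule of the highest mean signal, read 9.52 in control and 9.74 in DSS. The other set (10541873) read 7.85 and 7.47, a difference of -0.39. For 77 of the 85 member probe sets the nearest identifiers belonged to genes close by on the same chromosome, but the brighter Mrpl51 set lies among identifiers of genes on another chromosome than Mrpl51. A direction for Mrpl51 is therefore not given. Altogether 8 probe sets lay away from the neighbours of their gene, and they supplied the value of 6 members: Mrpl27, Mrpl41, Mrpl48, Mrpl51, Mrps33 and Mrps5. Which locus such a set reads was not tested. In Mrpl27, Mrpl41, Mrps33 and Mrps5 the set beside the gene's neighbours had the same sign, at 0.27, 0.17, 0.36 and -0.20. For Mrpl48 no other set was annotated. The 71 members whose value came from a set beside their gene's neighbours had a median difference of 0.09.

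**Figure D3:**
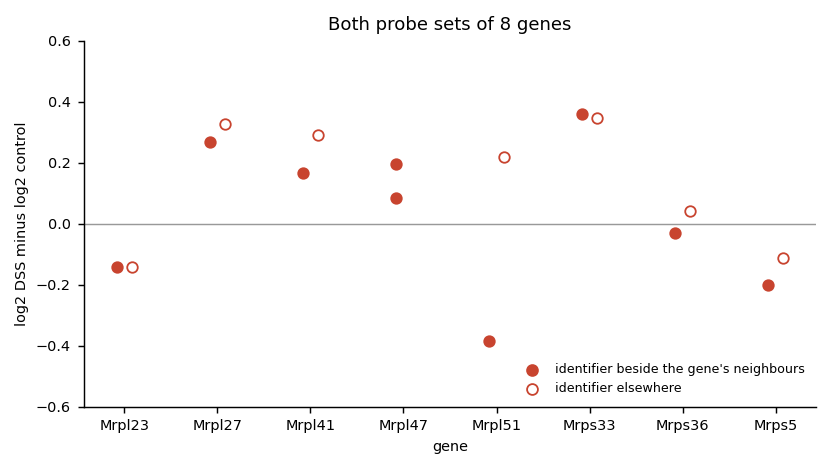
DSS minus control (log2) of both probe sets in 8 members, with filled points for sets whose identifier lies beside those of the gene's chromosomal neighbours and open points for the others. Mrpl51 has its sets at -0.39 and 0.22, and both sets of Mrps33 are near 0.35.

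Many members start head to head with another gene, that is, on the opposite strand within 1000 bases. This held for 24 of the 68 members with a listed promoter (35.3%) and for 8.48% of 17491 protein-coding genes in the same table. Mrpl46 and Mrps11 form such a pair with each other, at 0.39 and -0.07, the latter of which turned above 0 under both centrings. Mrpl32 and the proteasome gene Psma2 had differences of 0.63 and 0.65, Mrpl30 and Mitd1 had 0.53 and 0.85, and Mrpl18 and the chaperonin gene Tcp1 had 0.59 and 0.24. Other pairs ran apart: Mrps18b had 0.47 and Ppp1r10 -0.60, and Mrpl49 had -0.27 and Fau, a cytosolic ribosomal protein gene, 0.43. Of 22 measured pairs, 6 were above 0 in both genes, 4 were below 0 in both and 11 had opposite signs, and in the remaining pair the member (Mrps27) had a difference of 0. Across the 22 pairs Pearson's r was 0.22 and Spearman's rho was 0.18. With so few pairs on 2 arrays, these values set no limit on how alike neighbours on a shared promoter region are. No head-to-head partner reached 2-fold. The partners were taken from the genome table and their values are given as found. Some head-to-head pairs, such as Mrpl18 and Tcp1, also have overlapping loci.

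**Figure D4:**
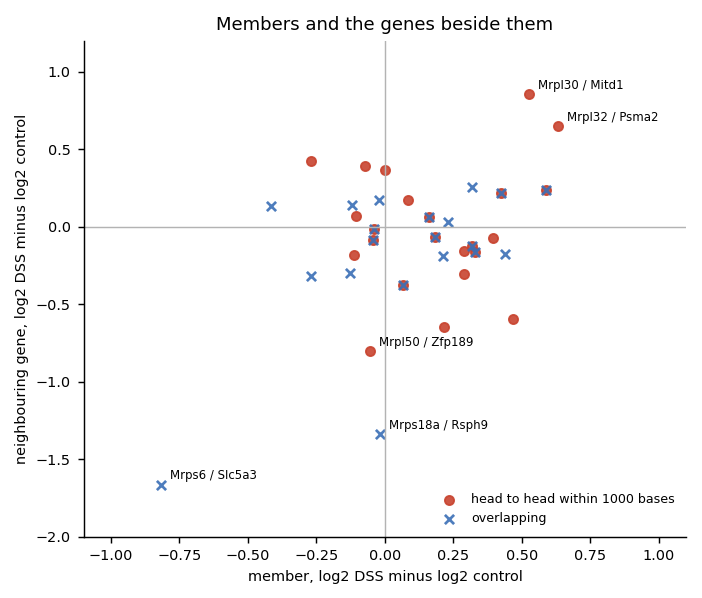
DSS minus control (log2) of members (horizontal) and of the gene beside each (vertical). Red circles are head-to-head neighbours within 1000 bases, with the pair of Mrpl46 and Mrps11 drawn from both sides, and blue crosses are overlapping genes. Pairs that belong to both classes, such as Mrpl18 and Tcp1, carry both symbols. Slc5a3, overlapping Mrps6, and Rsph9, overlapping Mrps18a, are the neighbours below -1.

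Subunits of the mitochondrial ribosome that do not carry the Mrpl or Mrps name gave similar values. Chchd1 read 8.73 in control and 9.14 in DSS, Dap3, a GTP-binding protein of the small subunit, read 7.14 and 7.39, and Ptcd3, which helps messenger RNA enter, read 6.37 and 6.56. Gadd45gip1, a large subunit protein at the exit tunnel, read 6.38 and 6.19. These 4 were all within 1.5-fold. Aurkaip1 had no probe set with a single symbol. The set shared by Mrpl53 and Ccdc142, which the rule left out, read 5.85 and 5.84.

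Of the genes that work with the mitochondrial ribosome, translation factors, tRNA synthetases and assembly factors had medians near 0. Those for mitochondrial transcription and RNA processing had a median close to that of the members (0.12). Only the assembly factors had a gene past 1.5-fold, 1 of 29 (3.45%), in the higher direction, beside 5.76% of all genes. Of 16 measured translation factors and helpers, 9 were above 0 and the median was 0.02. Initiation factors Mtif3 and Mtif2 had differences of -0.44 and 0.35, release factor Mtrf1 had 0.35 and the recycling factor Mrrf 0.33. The 21 mitochondrial tRNA synthetases and amidotransferase subunits had a median of -0.02 (0.07 under both centrings) with Rars2 at 0.53, Nars2 at 0.44, Kars at 0.41 and Mars2 at -0.41. The 29 assembly factors had a median of -0.06 (0.03 under median centring). Among them the RNA helicase gene Ddx28 read 6.70 in control and 7.57 in DSS, 1.83-fold higher, Rpusd3 had a difference of -0.54, Nsun4 one of 0.36 and Mettl17 one of -0.35. Of 18 genes for mitochondrial transcription and RNA processing 11 were above 0 (61.1%, against 61.0% of the members). Their median was 0.14 (0.22 under median centring and 0.18 under loess centring). Supv3l1, Fastkd3, Mtpap and Hsd17b10 had 0.53, 0.45, 0.42 and 0.40, and Fastkd1 had -0.28.

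Regulators linked to nuclear genes of mitochondria differed in both directions. Gabpb1, a subunit of the ETS factor GABP, read 7.15 in control and 8.05 in DSS, while its partner Gabpa read 10.16 and 10.08 and Gabpb2 read 7.53 and 7.37. Nrf1 read 6.91 and 6.97, and Tfam, which packages mitochondrial DNA, read 6.88 and 7.26. Yy1 read 9.27 and 9.10, and Myc read 9.33 and 8.98. The coactivator genes Pprc1, Ppargc1a and Ppargc1b had differences of -0.41, -0.53 and 0.06, and Esrra had -0.06, which turned above 0 under both centrings. Ppargc1a and Ppargc1b were below the median of both arrays, so their values cannot be told from background.

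Most transcripts for the respiratory chain and the ATP synthase were slightly higher on the DSS array, and none of those measured reached 2-fold. Proteins were not measured. Of the transcripts of mitochondrial DNA, 2 had a probe set with a single symbol. COX2 (cytochrome oxidase subunit) read 12.04 in control and 12.20 in DSS, with -0.02 under loess centring, and ND3 (a complex I subunit) read 11.31 and 11.50. Each of these genes had 2 probe sets, and the brighter one was used. The place of identifiers was checked for members only. Which locus the sets of COX2, ND3 and the genes listed below read was not tested. The 70 nuclear subunits of oxidative phosphorylation had a median difference of 0.22 (0.11 under loess centring). Of these, 59 were above 0 (84.3%, against 46.7% of the brighter genes). At 1.5-fold 4 (5.71%) were higher, beside 5.76% of all genes and 9.79% of brighter genes. In the lower direction 0 passed 1.5-fold, beside 5.33% and 8.59%. Ndufs4, Cox7a2, Ndufb3 and Cox7b had 0.80, 0.64, 0.63 and 0.59, and Ndufa5 had -0.26. The 55 cytosolic ribosomal proteins had a median difference of 0.13 that turned to -0.02 under loess centring, with 50 above 0 in the deposited values and 25 above 0 under loess. Their highest were Rps9, Rpl34, Rps25 and Fau, at 0.50, 0.46, 0.44 and 0.43, and Rpl14 was lowest at -0.13. The SD across genes was 0.13 for cytosolic ribosomal proteins, 0.21 for oxidative phosphorylation and 0.30 for mitochondrial ribosomal proteins. Cytosolic members were brighter, with a median control signal of 11.86 against 7.61, and the part of signal in the unequal spread was not tested.

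**Figure D5:**
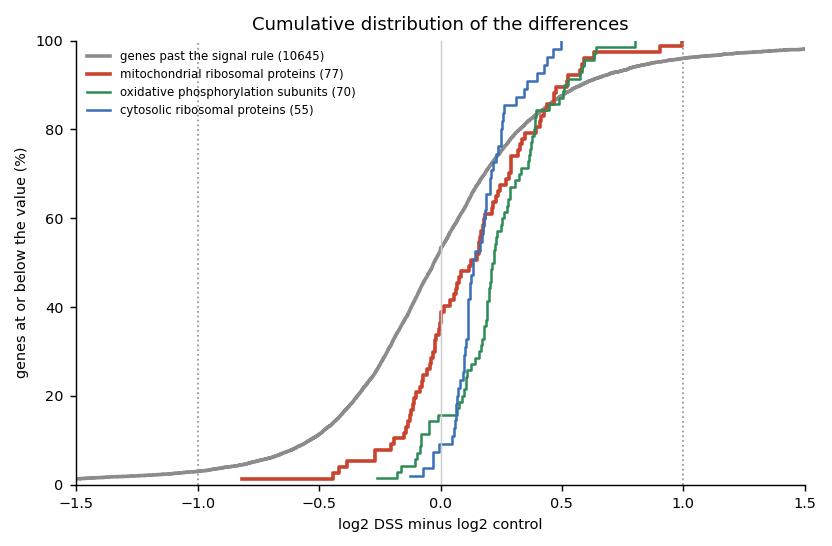
Share of genes (vertical, percent) at or below each DSS minus control difference (horizontal, log2) for mitochondrial ribosomal proteins, oxidative phosphorylation subunits, cytosolic ribosomal proteins and the 10645 brighter genes; dotted lines mark 2-fold. All curves but that of the brighter genes end inside 2-fold, and the mitochondrial ribosomal curve has the widest spread of the 3 families.

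Mitochondrial import and quality control genes had members lower than any of the family but Mrps6. Of 25 genes, 17 were above 0 with a median of 0.14. The protease gene Htra2 read 9.19 in control and 8.57 in DSS, and the chaperonin gene Hspd1 read 11.86 and 11.31. The import channel genes Tomm22 and Timm23 had differences of 0.55 and 0.54.

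Markers of neutrophils, monocytes and resident macrophages differed far more than the family between these arrays. Over all genes 2.25% were at least 2-fold higher in DSS and 1.72% were at least 2-fold lower. The lists were chosen with earlier results of these data known, so their counts are descriptions. Of 14 neutrophil markers, 12 were at least 2-fold higher in DSS, with signals of 3.77 to 9.45 (median 5.45) in control and 4.77 to 13.10 (median 10.41) in DSS. Mmp8, Stfa3, Lcn2 and Ly6g had differences of 6.65, 6.05, 6.01 and 5.97, while Mpo and Elane were within 2-fold at 0.29 and -0.28. Of 7 measured monocyte markers 6 were at least 2-fold higher and 1 lower, with medians of 6.57 and 11.23. Chil3, Hp, Ifitm6 and Trem1 had differences of 5.90, 4.76, 4.67 and 4.61, and F13a1 had -1.88. All 12 resident macrophage markers were below 0, 6 of them at least 2-fold lower, with medians of 10.83 and 8.21. The lowest were Vsig4, Cbr2, Folr2 and Lyve1, at -5.29, -4.03, -3.62 and -3.61.

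Lists for other cell types had medians nearer to 0, with single large members. The 7 mast cell markers had a median difference of 0.33 with 1 at least 2-fold higher. That gene was Hdc, the histidine decarboxylase gene, at 6.18 in control and 10.85 in DSS. Kit, Mcpt2 and Fcer1a had differences of 0.96, -0.39 and 0.34. For the 8 T and NK cell markers the median difference was 0.06, and 2 genes were lower by 2-fold or more. These were Cd4, at 9.04 in control and 7.39 in DSS, and Cd2, at 7.38 and 6.11, while Cd3d and Cd3g, below the median of both arrays, had differences of 0.55 and 0.41. No marker of the other 3 lists reached 2-fold. The epithelial median was 0.24, with Car1, Muc2, Slc26a3 and Cdh1 at 0.83, 0.69, -0.35 and 0.35. The B and plasma cell median was -0.01, with Ms4a1, Mzb1, Jchain and Cd79a at 0.76, 0.49, -0.27 and -0.24. The fibroblast and endothelial median was -0.25, with Pecam1, Cdh5, Dcn and Col3a1 at 0.85, 0.59, -0.58 and -0.47. The part of a changed cell mixture in the member differences was not tested, and in sorted bulk RNA fewer cells of a type and less RNA per cell cannot be told apart.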

How the data were processed

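The authors deposited log2 signals of 35556 probe sets on 2 arrays, made with RMA per the submitters' processing notes. Neither its version nor its settings were given in the sources used here. RMA shrinks differences of dim probe sets, and quantile normalisation, if it was applied, would take out any shift common to all genes. Genes were named by the platform annotation from probe sets with 1 symbol (21789; 1621 had several symbols and 12146 were not listed). All 77 members matched the RefSeq table of GRCm38.p6, used for chromosome order, neighbours and promoters only. Of several probe sets of a gene, the one brightest on average was used. Array medians rest on 28939 probe sets, without identifiers below the lowest listed one. Counts cover all genes, and a subset of 10645 had a mean signal at or above the mean of the array medians. A probe set was taken as beside its gene when, on either side, at least 5 of the 10 nearest identifiers belonged to genes within 5 Mb of it. Alternatives were median and loess (span 0.4) centring, other probe set rules, signal filters, a floor at the 25th percentile of values, and sizes of 1.5-fold and 3-fold. Subunits, roles and gene lists came from general knowledge, and members and lists were chosen with earlier results of these data known. The text names all members, and of each list the 4 genes with the largest differences and the one furthest the other way, and all regulators. Steps were tested on simulated data. The table holds no detection calls, and the number of arrays limits precision. Python 3.11.15, numpy 2.4.6, pandas 2.3.3, statsmodels 0.14.6 and matplotlib 3.10.9 were used.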

Additional observations from a re-analysis of the deposited data

How the results depend on the processing

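The median difference of the members stayed above 0 under all 10 alternatives, between 0.12 and 0.21, and the medians by subunit and by origin stayed above 0 under theirs, between 0.11 and 0.25. Most alternatives could hardly move the family median. The signal filters and the floor touched only Mrps27, and the probe set rules touched at most the 8 members with 2 sets. Median centring gave the 0.21, and it also raised the median of all genes, from -0.06 to 0.02. The count of members at least 2-fold higher was 0 as reported, 1 when each array was centred on its median, and 4 at a size of 1.5-fold. The count at least 2-fold lower was 0 as reported and 1 at 1.5-fold. The sign of a difference changed from the deposited one in 11 members under median centring, in 6 under loess centring and in 2 when the other probe set was used or averaged. An alternative chosen after seeing the data took the probe set beside the gene's neighbours. It moved Mrpl51 from 0.22 to -0.39 and left the family median at 0.12. No paired analysis was possible because each group has 1 array, and no array could be left out. Dim signals cannot be told from background, and Mrps27 alone among the members was below the array medians. The medians are not a background threshold, so members just above them, such as Mrpl38 at 5.82 in DSS, may be affected too.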

Other observations

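Equal values on both arrays occurred for 536 of the 28939 probe sets (1.85%), among them the sets of Mrps27 and Mrpl45. The 2 probe sets of Mrpl23 had different signals, 8.94 and 9.29 in control, and the same difference of -0.14.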
